A study of Mus musculus with 9 samples.

Results

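The complement system is a set of blood and tissue proteins that tag microbes and dying cells for uptake and can open pores in membranes. The genes described here are 9 components and regulators of it, namely C1qa, C1qb, C1qc, C2, C3, C4b, Cfb, Cfp and Serping1. They were found by taking every probe set whose platform annotation gives 1 gene symbol from that list. This yielded 9 probe sets for 7 of the 9 genes, among 22626 tested probe sets and 12393 named genes. C3 was not analysed here. The 1 probe set that names C4b, 1418021_at, also names its near-identical paralog C4a and was kept apart from the members.

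Total RNA of the mouse macrophage line RAW 264.7 was hybridised to 9 expression arrays, 3 per group. The groups were cells labelled as constitutively overexpressing CstF-64, a subunit of the factor that helps form mRNA 3' ends; cells exposed for 18 h to 100 ng/ml of LPS, a lipid-sugar molecule of bacterial outer membranes; and untreated cells. The labels name neither the construct nor a vector control, nor whether the line overexpressing CstF-64 is 1 clone or a pool, so that an effect of CstF-64 and other differences between the cell populations cannot be told apart. They also do not say that replicates were separate cultures, so p-values cover only the spread between these arrays, which may be technical. Cstf2, which encodes CstF-64, did not show the rise that the label names. Its brighter probe set, 1419645_at, read 317.9, 361.5 and 394.5 in the CstF-64 group, against 397.8, 363.1 and 372.2 in untreated cells (log2 -0.08, SE 0.13, limma adjusted p = 1.00). The dimmer one, 1419644_at, read 97.1, 85.4 and 80.4 against 114.7, 100.2 and 134.1 (log2 -0.36, limma adjusted p = 0.763). Whether either probe set lies inside the expressed sequence is not known. "CstF-64 group" is used below only as the label of those arrays.

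Complement starts along several routes: the classical route, in which C1q binds antibody or dying cells; the lectin route, in which sugar-binding proteins do so; and the alternative route, which runs on its own and amplifies the others. C1q is built from the chains of C1qa, C1qb and C1qc. C4 and C2 form the classical C3-cleaving enzyme, and C3 with factor B, the product of Cfb, forms the alternative one. Properdin, the product of Cfp, stabilises the alternative enzyme, and the C1 inhibitor, the product of Serping1, blocks the proteases of C1. Macrophages are a known local source of several of these proteins, C1q and properdin among them.

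RefSeq promoter windows (GRCm38.p6, 250 bases before to 50 bases after the gene's start) were matched for 4 of the 9 genes, C1qb, C1qc, C3 and Cfp. The windows of Cfp, C1qb and C1qc are shown because Cfp was read above background on every array and the C1q genes, which lie side by side on chromosome 4, on none. Each runs 5′ to 3′ on the gene's strand, and capitals mark matches on either strand to GAGGAA, the core of sites bound by the macrophage factor PU.1, or to the kappaB consensus. The windows are chrX:20931506-20931805, chr4:136886151-136886450 and chr4:136892865-136893164, all on the minus strand.
Cfp: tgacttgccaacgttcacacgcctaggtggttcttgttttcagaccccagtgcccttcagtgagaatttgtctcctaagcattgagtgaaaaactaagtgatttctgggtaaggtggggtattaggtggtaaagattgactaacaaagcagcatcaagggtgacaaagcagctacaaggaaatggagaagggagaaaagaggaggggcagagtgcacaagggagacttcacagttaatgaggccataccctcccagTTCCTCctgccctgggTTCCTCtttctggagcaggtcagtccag
C1qb: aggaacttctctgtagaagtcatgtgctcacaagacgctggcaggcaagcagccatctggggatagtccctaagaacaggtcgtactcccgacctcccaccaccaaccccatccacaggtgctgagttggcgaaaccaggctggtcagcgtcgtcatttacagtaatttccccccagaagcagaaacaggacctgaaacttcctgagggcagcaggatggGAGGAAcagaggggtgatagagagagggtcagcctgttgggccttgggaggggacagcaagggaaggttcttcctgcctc
C1qc: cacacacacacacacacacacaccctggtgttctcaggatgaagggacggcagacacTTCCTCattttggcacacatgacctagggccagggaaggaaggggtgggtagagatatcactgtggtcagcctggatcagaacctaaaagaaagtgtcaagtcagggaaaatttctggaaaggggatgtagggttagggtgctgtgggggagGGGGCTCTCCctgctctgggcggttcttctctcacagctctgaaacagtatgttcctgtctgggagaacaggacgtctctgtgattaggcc
GAGGAA or its complement TTCCTC occurred in the 3 printed windows, at 2 places in Cfp and at 1 each in C1qb and C1qc, and 28.3% of 32851 windows of the same length hold it. The kappaB consensus matched the C1qc window at 1 place, where 4.51% of windows hold it. The 2 matches in Cfp start 6 and 22 bases after the gene's start, and that in C1qb begins at -30. None of the printed windows held the core of the interferon-stimulated response element (in 3.44% of windows), TTCNNNGAA (STAT site, 8.30%) or TTGCNNAA (C/EBP site, 10.8%), and no matches overlapped. The window of C3, which is not printed because C3 has no readings here, held no GAGGAA and no kappaB match, and held TTGCNNAA at 1 place, starting at -45. A match is a run of letters and was not tested as a binding site. The PU.1 letters were present in the printed windows of genes at background and of the gene read on every array. A link between these letters and the readings was not tested.

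Values are deposited intensities on a linear scale, and 31.2, the highest reading of 27 bacterial control probe sets, served as the background limit. The median of the control readings was 2.2, so the limit is strict, and a reading below it does not show that a transcript is absent. Log2 changes are differences of log2(intensity + 13), which understate the change of dim probe sets, and come from a limma fit to all 9 arrays with p-values adjusted by the Benjamini-Hochberg method over all tested probe sets. "Rose", "fell" and "called" refer to an adjusted p under 0.05. Array medians were 42.75 to 49.3 in the LPS group and 51.1 to 54.2 in the other arrays, and the ratio of 3' to 5' signal was 1.03 to 1.22 for actin. LPS array 1 stood apart, with a mean correlation to its own group of 0.966 against 0.977 and 0.978 for LPS arrays 2 and 3. All 10 macrophage markers were above background on at least 1 array. Their summed intensity was 15391 to 19459 in the CstF-64 group, 20236 to 22051 in the LPS group and 14765 to 19620 in untreated cells. After LPS, 4 of the 10 were called higher, Itgam among them, and 1 lower. Itgam is also reported below as a complement gene, so the marker list and that result share it. Of the markers of hepatocytes, the cells that make most plasma complement, 5 of 6 lay at or below the limit on all arrays. The sixth, Alb, reached at most 40.0. At or below the limit throughout were 3 of 6 endothelial, 5 of 7 lymphocyte, 4 of 5 epithelial and 2 of 5 granulocyte markers. No marker of these sets was called against untreated cells. Of 8 fibroblast markers, 4 lay at or below the limit on all arrays and 1, Dcn, rose after LPS, with a summed intensity of 140.7 to 159.2 in the CstF-64 group, 184.7 to 226.5 in the LPS group and 141.9 to 162.1 in untreated cells. The part of these differences in the results below was not tested.

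Cfb was the member that changed. After LPS its probe set, 1417314_at, read 329.5, 467.8 and 533.8, against 4.7, 3.8 and 17.9 in untreated cells. The groups did not overlap, every LPS array lay above the background limit and every untreated array below it. The rise was at least 13.9-fold, taken as the geometric mean of the LPS arrays over the limit, with a log2 change of 4.42 (SE 0.28, 95% interval 3.80 to 5.04, limma adjusted p = 9.4e-06). Of 22626 probe sets, 21 had a larger log2 rise. The arrays labelled CstF-64 read 5.4, 11.2 and 4.2, all below the limit and within the range of the untreated arrays (limma adjusted p = 1.00). Set against LPS, the CstF-64 arrays were lower by 4.51 on the log2 scale (log2 -4.51, SE 0.28, limma adjusted p = 8.9e-06), which tests the difference between the 2 comparisons with untreated cells. Among untreated arrays the third was the highest, at 17.9, still below the limit.

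**Figure D1:**
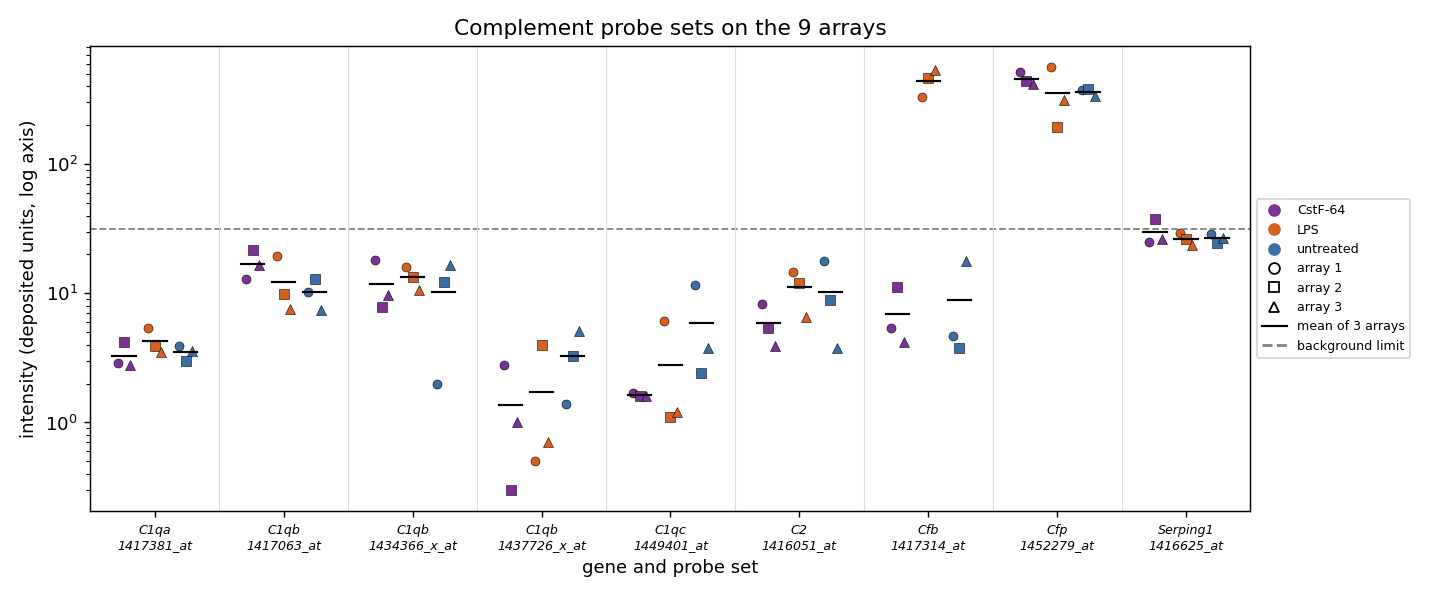
Intensity (log axis) of the 9 complement probe sets on each array, with the CstF-64, LPS and untreated groups from left to right in each column, bars at the mean of 3 arrays and the background limit of 31.2 dashed. Cfb lies above the limit on the 3 LPS arrays and below it on the other 6, Cfp lies above it on all 9, and Serping1 crosses it on 1 CstF-64 array.

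C2, whose protein is the classical counterpart of factor B and whose gene lies next to Cfb on chromosome 17, stayed below the background limit. Its probe set, 1416051_at, read 8.3, 5.4 and 3.9 in the CstF-64 group, 14.6, 12.1 and 6.6 in the LPS group and 17.8, 8.9 and 3.8 in untreated cells. All 9 readings were under the limit and the groups overlapped. It was not called after LPS (limma adjusted p = 0.854). Because C2 was below the limit in every group, a change of its transcript there may be missed. C4, the protein that C1 cleaves first, is represented by the probe set of both C4a and C4b, which was above the limit on all arrays and read 59.6, 90.0 and 98.2 in the CstF-64 group, 97.9, 44.7 and 126.2 in the LPS group and 75.7, 61.0 and 70.1 in untreated cells. These groups overlapped and it was not called (log2 0.24 after LPS, 95% interval -0.44 to 0.92, limma adjusted p = 0.688), and how much each of C4a and C4b gives to it cannot be told from 1 shared probe set.

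Properdin was the member read above background in all groups. Cfp, 1452279_at, read 514.8, 436.2 and 420.0 in the CstF-64 group, 564.0, 194.3 and 315.7 in the LPS group and 375.8, 383.4 and 334.8 in untreated cells. The LPS arrays held both the highest and the lowest value of the 9, and their SD was 188, against 50.7 in the CstF-64 group and 26.1 in untreated cells. The log2 change after LPS was -0.15 (SE 0.30, 95% interval -0.81 to 0.51, limma adjusted p = 0.810). Its sign turned with the array left out: 0.21 without LPS array 2 (limma adjusted p = 0.613) and -0.53 without LPS array 1 (limma adjusted p = 0.104). Under 2 of the 18 alternative settings described below, the sign differed from the reported one. All arrays labelled CstF-64 lay above all untreated arrays, with a log2 change of 0.31 (95% interval -0.35 to 0.97, limma adjusted p = 0.985), so it was not called. Against LPS the CstF-64 arrays differed by 0.46 (95% interval -0.20 to 1.12, limma adjusted p = 0.365), and by 0.84 with a call (limma adjusted p = 0.0213) without LPS array 1.

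The C1q chains, the recognition part of the classical route, read below the background limit on every array. C1qa, 1417381_at, read between 2.8 and 5.4, C1qc, 1449401_at, between 1.1 and 11.6, and the 3 probe sets of C1qb between 0.3 and 21.5. The brightest of them, 1417063_at of C1qb, read 12.8, 21.5 and 16.6 in the CstF-64 group, 19.6, 9.8 and 7.6 in the LPS group and 10.3, 12.9 and 7.4 in untreated cells. None reached the limit of 31.2, so no difference in level is given, and none was called after LPS (limma adjusted p from 0.410 to 0.793). For C1qc every CstF-64 array (1.6 to 1.7) was below every untreated array (2.4 to 11.6), at readings where the array cannot order levels. Serping1, the inhibitor, read 24.9, 37.9 and 26.5 in the CstF-64 group, 29.1, 26.4 and 23.8 in the LPS group and 28.8, 24.6 and 26.6 in untreated cells on 1416625_at. Only CstF-64 array 2 passed the limit, and neither CstF-64 nor LPS gave a call against untreated cells (limma adjusted p = 1.00 and 0.982).

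**Figure D2:**
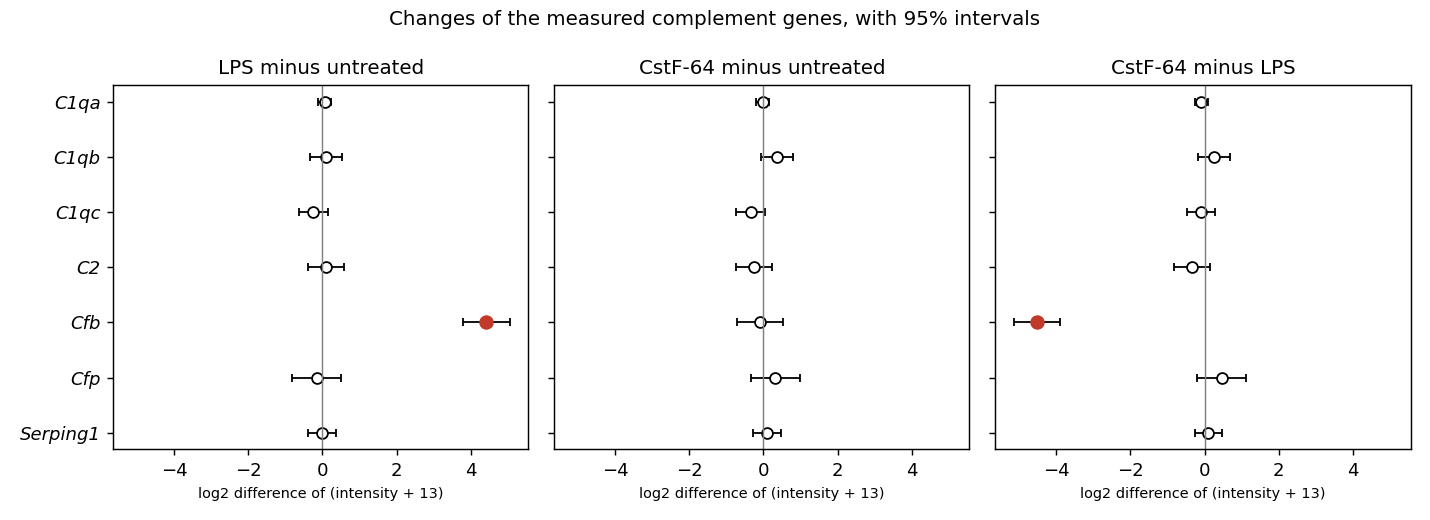
Log2 difference of (intensity + 13) for the 7 measured complement genes (brightest probe set), with 95% intervals, in 3 comparisons. Filled points passed an adjusted p of 0.05: Cfb at 4.42 for LPS minus untreated and at -4.51 for CstF-64 minus LPS. The open points lie between -0.35 and 0.46, and those of the C1q chains and C2 are differences between readings below the background limit.

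In counts, 1 of 7 measured members rose after LPS (14.3%) and none fell, where 6.67% of all named genes rose and 10.4% fell. With 7 genes, that share rests on Cfb alone. Against untreated cells no member was called in the CstF-64 group by limma (0 of 7, and 0 at an unadjusted p under 0.05), where 0.105% of named genes were called higher and 0.169% lower. Against LPS, Cfb was lower in the CstF-64 group (1 of 7), where 6.38% of named genes were called lower and 9.51% higher. In the comparison of CstF-64 with untreated cells, groups did not overlap for 2 of the 9 member probe sets, those of C1qc and Cfp, and for 12.9% of all probe sets. The median log2 change over the 7 members was 0.06 after LPS and -0.02 in the CstF-64 group, against -0.03 and 0.01 over all named genes, with 4 of the 7 at or below the limit on all arrays. Of the 9 member probe sets, 6 lay at or below the limit on all arrays (66.7%), as did 31.2% of all tested probe sets.

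Among 51 other complement genes listed by role, 39 were measured and 3 rose after LPS (7.69%), namely the receptors C3ar1 and Itgam and the regulator Clu, and none fell by limma, beside the 6.67% of all named genes that rose and 10.4% that fell. The share that rose is near that of all genes. At an unadjusted p under 0.05, 3 were higher and 3 lower. None of the 39 was called between the CstF-64 group and untreated cells (2 higher and 3 lower at an unadjusted p under 0.05). The share of all named genes under that unadjusted threshold is not given, so the unadjusted counts, those of the members included, are descriptive only. Of the 39, 14 lay at or below the limit on all arrays (35.9%, against 26.8% of all named genes), among them 2 of 8 initiating proteins, 3 of 6 terminal components, 2 of 12 receptors and 7 of 13 regulators. The alternative-route protease gene Cfd was not among those measured.

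C3ar1, the receptor for the C3a fragment released when C3 is cleaved, rose after LPS. Its brighter probe set, 1419483_at, read 300.4, 407.0 and 402.6 in the CstF-64 group, 1043.0, 599.4 and 590.1 in the LPS group and 202.7, 308.7 and 351.0 in untreated cells. All LPS arrays were above all others, array 1 being the highest, and the log2 change against untreated was 1.32 (SE 0.26, limma adjusted p = 0.0069). The second probe set of C3ar1, 1419482_at, gave 1.48 (limma adjusted p = 0.0120). Between the CstF-64 and LPS groups C3ar1 differed by -0.94 (limma adjusted p = 0.0347), a call lost under 7 of 18 alternatives: with the replicate block (limma adjusted p = 0.0619), with quantile normalization (0.0523), and in the fits without LPS array 1 (limma adjusted p = 0.0822), without untreated array 2 (0.0524) or without CstF-64 array 1, 2 or 3 (0.0964, 0.0688 and 0.0724).

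Itgam, the alpha chain of complement receptor 3, which takes up particles coated with cleaved C3, read 108.6, 119.2 and 116.9 in the CstF-64 group, 523.3, 489.4 and 445.6 in the LPS group and 123.9, 185.1 and 194.9 in untreated cells. The LPS arrays were again above all others (log2 1.48, SE 0.16, limma adjusted p = 0.000274), and the CstF-64 arrays below all untreated ones without a call (log2 -0.48, limma adjusted p = 0.576). Its partner Itgb2, the beta chain, read 2296.4, 2460.2 and 2334.0 in the CstF-64 group, 2932.0, 3003.2 and 2917.9 in the LPS group and 1577.6, 2571.6 and 2827.4 in untreated cells. Its LPS arrays also lay above all others, but untreated array 1 was the lowest and the LPS change did not pass (log2 0.39, limma adjusted p = 0.224).

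Clu, which encodes clusterin, an inhibitor of the terminal pore, read 236.6, 179.6 and 172.2 in the CstF-64 group, 1368.5, 580.4 and 641.8 in the LPS group and 184.1, 275.4 and 296.1 in untreated cells on its brightest probe set, 1454849_x_at. The log2 change after LPS was 1.64 (SE 0.31, limma adjusted p = 0.0053), and all 4 Clu probe sets rose, by 1.49 to 2.06 on the log2 scale. LPS array 1 was the highest array for Clu as it was for C3ar1. Clu and Itgam were, with C3ar1, the 3 of 39 genes lower in the CstF-64 group than in the LPS group (log2 -1.97 and -1.96, limma adjusted p = 0.0021 and 5.23e-05). That is 7.69%, near the 6.38% of all named genes called lower, and 1 of 39 (2.56%) was called higher, where 9.51% of all named genes were. Csmd1, a membrane protein with complement-regulating domains, was the 1 gene called higher by its brightest probe set in that comparison (limma adjusted p = 0.0227). It read 8.9, 13.4 and 10.0 in the CstF-64 group and 1.2, 5.3 and 4.4 in the LPS group, all below the limit, so no fold is given. That call was lost without LPS array 1 or without CstF-64 array 2 or 3.

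**Figure D3:**
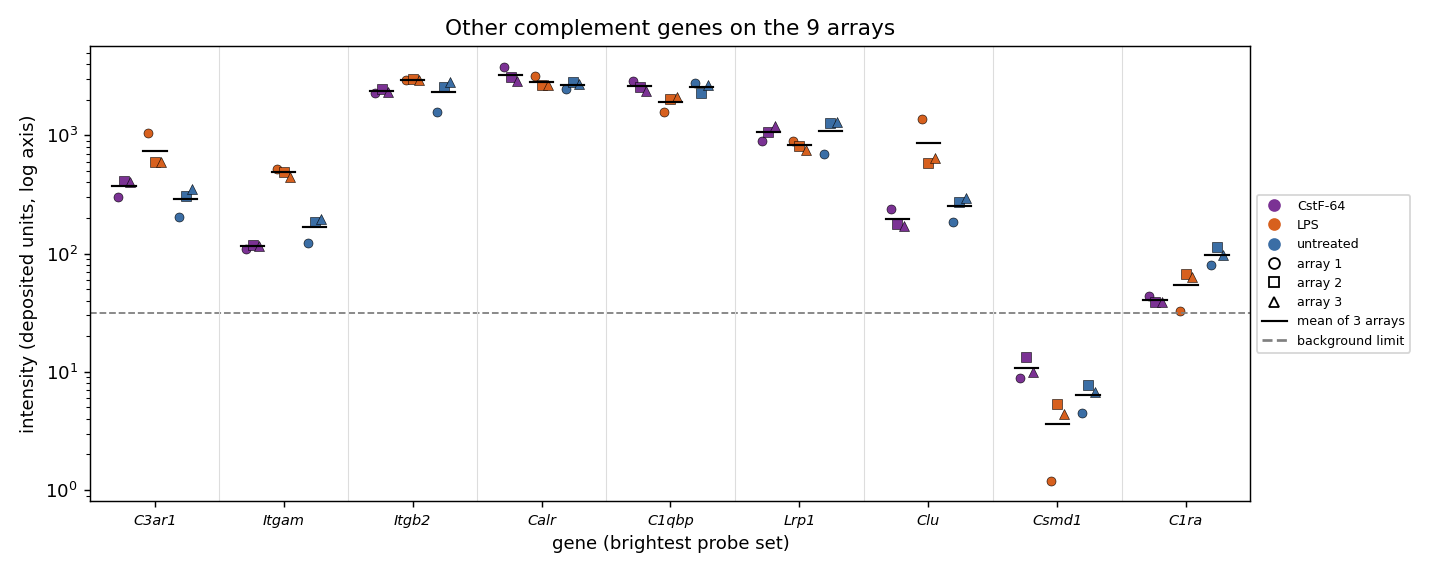
Intensity (log axis) of 9 other complement genes on each array, with the CstF-64, LPS and untreated groups from left to right and the background limit of 31.2 dashed. The LPS arrays of C3ar1, Itgam, Itgb2 and Clu lie above all other arrays, those of Calr and Lrp1 overlap the untreated ones, and Csmd1 stays below the limit.

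The brightest uncalled genes besides Itgb2 were Calr, C1qbp and Lrp1, proteins that bind C1q or serve in its uptake. Calr averaged 3268 ± 478 in the CstF-64 group, 2832 ± 303 in the LPS group and 2678 ± 185 in untreated cells (SD, n = 3 each). Lrp1 averaged 1058 ± 157 in the CstF-64 group, 821 ± 69.3 in the LPS group and 1091 ± 339 in untreated cells. C1qbp averaged 2588 ± 257 in the CstF-64 group, 1902 ± 297 in the LPS group and 2560 ± 252 in untreated cells on its brighter probe set (log2 -0.43 after LPS, limma adjusted p = 0.0784). Its dimmer one, 1448274_at, fell after LPS (log2 -0.80, limma adjusted p = 0.0409), so the probe sets disagree on the call. They also disagree for CstF-64 against LPS, where the dimmer was called higher (log2 0.84, limma adjusted p = 0.0363) and the brighter was not (log2 0.45, limma adjusted p = 0.0740). C1ra, a protease of C1 that is named here after its values were seen, read 43.9, 38.8 and 39.1 in the CstF-64 group, 32.8, 67.7 and 62.9 in the LPS group and 80.2, 113.7 and 97.8 in untreated cells. Both groups lay wholly below the untreated arrays, at log2 -1.03 for CstF-64 (95% interval -1.54 to -0.52, limma adjusted p = 0.198) and -0.74 for LPS (95% interval -1.25 to -0.23, limma adjusted p = 0.0548), and neither passed. Without LPS array 2 the LPS difference was called (log2 -0.89, limma adjusted p = 0.0426), as was that of CstF-64 without LPS array 1 (log2 -1.03, limma adjusted p = 0.0330).

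Patterns over the 9 arrays were compared with those of 7996 candidates, non-member genes whose mean over the 9 arrays was above the background limit. The closest to Cfb were Ubap1, Marcks and Glrx, with Pearson r of log2 values of 0.995, 0.993 and 0.993. All of them were high on the LPS arrays and low on the other 6, and since the groups are separate clusters, r mostly records that split. Marcks read 82.7, 92.2 and 110.8 on the LPS arrays and 3.0 to 6.8 on the other 6, which like those of Cfb lay below the limit. Its mean, 35.1, passed the limit only through the LPS arrays. Glrx, a glutaredoxin, read 260.9, 221.8 and 236.0 in the CstF-64 group, 1413.9, 1533.5 and 1417.5 in the LPS group and 216.2, 214.2 and 290.7 in untreated cells. For C1qb the closest genes were Adam4, Rbfox2 and Septin11 (r = 0.949, 0.937 and 0.928), but its readings are below the limit. For Cfp, added after its values were seen, they were Prima1, Fancc and Styxl1 (r = 0.981, 0.965 and 0.965), and their low reading on LPS array 2 follows from that choice. Prima1 read 81.9, 19.7 and 43.1 on the 3 LPS arrays, the second of these below the limit.

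**Figure D4:**
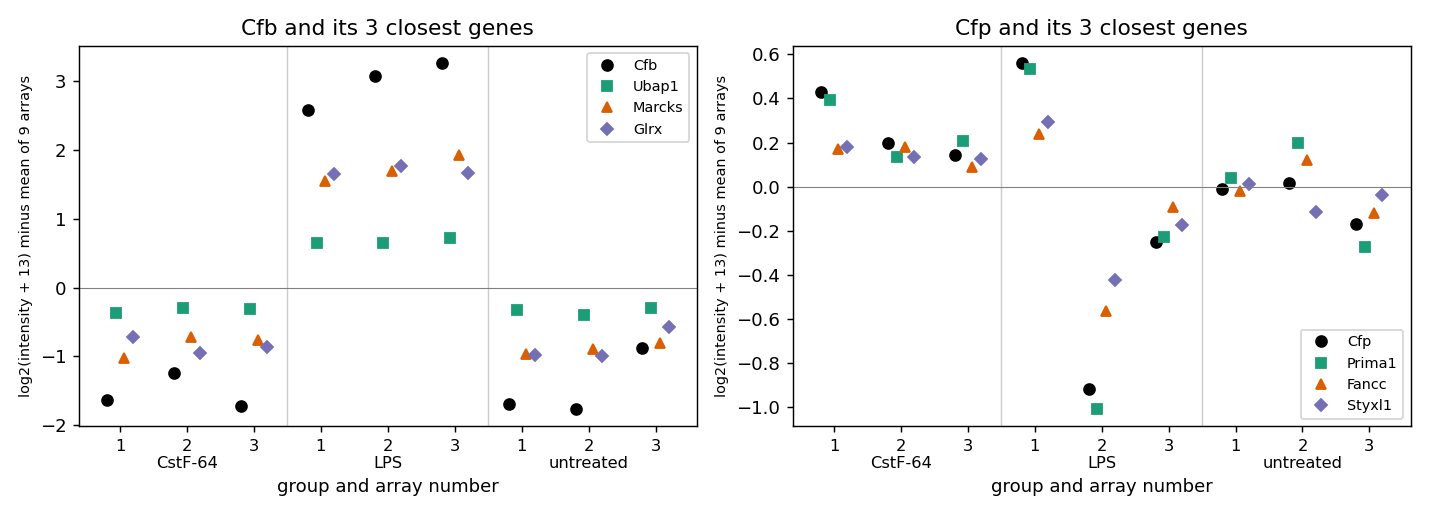
Log2(intensity + 13) minus its mean over the 9 arrays for Cfb (left) and Cfp (right), each with the 3 genes of highest Pearson r, on every array of the CstF-64, LPS and untreated groups. Cfb and its companions separate the LPS arrays from the other 6, whereas Cfp and its companions are lowest on LPS array 2.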

How the data were processed

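The deposited intensities, 1 per probe set and array, are on a linear scale, and how the authors made them is not stated by the labels or the file header. The arrays had been scaled before deposit: means trimmed by 2% at each end were 150.05 to 150.06 in all 9 columns. Values were kept as deposited and transformed to log2(intensity + 13), 13 being 0.25 of the median value, 50.2, rounded. Limma 3.58.1 (R 4.3.3) fitted a mean per group to all 9 arrays, with an intensity trend, over 22626 non-control probe sets. Symbols of the platform annotation were updated through gene identifiers to GRCm38.p6: 20380 probe sets had 1 gene, 691 several and 1555 none. A gene's call is that of its brightest probe set.

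All members were named, with any called pathway gene and the 4 brightest uncalled ones, and the 3 genes closest to Cfb and C1qb by Pearson r. The members and lists were chosen with earlier results of these data known. Recovery was checked on simulated data, with 50 altered probe sets at each size. For LPS against untreated, the share recovered was 10% at a log2 size of 0.5, 62% at 1 and 90% at 2. For CstF-64 against untreated, it was 6%, 60% and 92%. False calls among 22626 probe sets numbered 5 and 11. Differences as small as those of the uncalled members may therefore be missed, and a missing call does not show an unchanged level. The intensity and spread of the simulated probe sets are not given here. With 3 arrays per group, the number of arrays limits the precision. Alternatives, 18 in number, covered normalization, pseudocount, filter, variance trend, samples, replicate block, probe set choice and leaving out each array.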

Additional observations from a re-analysis of the deposited data

How the results depend on the processing

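Cfb rose after LPS under all 18 alternatives, by 3.01 to 5.76 on the log2 scale with limma adjusted p of at most 0.000125, and its difference between CstF-64 and LPS was called under all 18. Several of these could not move its log2 change after LPS, which stayed at 4.42. They were the filter, no trend, only the 2 groups compared, the replicate block, the mean of probe sets and leaving out a CstF-64 array. The count of members called was the same under every alternative except that Cfp was called higher in CstF-64 than in LPS without LPS array 1, so that this count ran from 0 to 1 over the fits without 1 array. Of the members, only Cfb and Cfp passed the filter on dim probe sets, Cfb through its 3 LPS arrays alone. The calls of Cfb under the filter are therefore no further check of it. Pathway genes that fell after LPS numbered 0 in the reported fit, 1 with quantile normalization (C1qbp), 1 with the larger pseudocount (C1ra), 1 without the trend (C1ra), 2 with the filter and 2 with the mean of all probe sets (C1ra and C1qbp each time), and 0 to 1 without single arrays (Lrp1 without untreated array 1, C1ra without LPS array 2). In CstF-64 against untreated, 0 to 1 fell without single arrays, the 1 being C1ra without LPS array 1. Pathway genes higher in CstF-64 than in LPS numbered 1, or 2 with quantile normalization and 2 with the mean of all probe sets, and 0 to 2 without single arrays: 0 without LPS array 1 or CstF-64 array 2 or 3, and 2 without CstF-64 array 1. The 1 higher gene was C1qbp, not Csmd1, with the filter. Pathway genes lower in CstF-64 than in LPS numbered 3 and ran from 2 to 4: C3ar1 was lost as reported, Cd59a was gained with quantile normalization, median centring, the mean of all probe sets and the replicate block (limma adjusted p = 0.0471), and C6 without LPS array 2. Pathway genes that rose after LPS numbered 3 throughout, or 4 without LPS array 1 (Cd55b) and without LPS array 2 (C6). Over all probe sets, 56 were called between CstF-64 and untreated, 32 with the replicate block and 18 to 110 without single arrays. After LPS 3755 were called, 2399 without untreated array 2 and 2250 genes with 1 row per gene. Between CstF-64 and LPS 3443 were called, 2163 and 2093 without CstF-64 array 2 and 3, and 2046 genes with 1 row per gene. Same-numbered arrays showed no clear pairing: correlations of their deviations ran from -0.06 to 0.16, and an array correlated best with its own number in 4 of 9 cases. With 3 arrays per group, these values cannot decide whether same-numbered arrays share a culture or batch. With the replicate block the log2 change of Cfb after LPS was 4.42 (limma adjusted p = 5.98e-05), and no call of a member changed; among pathway genes the block lost C3ar1 and gained Cd59a between CstF-64 and LPS. The cause of these changes was not tested. Genes read below 31.2 can only be bounded.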
